A study of Mus musculus with 12 samples.

Results

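The progression of the wound response between 3 h and 12 h was followed in mouse cecum, by comparing 3 cecum samples taken 12 h after cauterization directly with 3 taken 3 h after it. These 6 samples, of 12 in the series, were chosen by their labelled time, and every probe of the arrays that was not a control was included. The labels name no strain, the methods name C57BL/6 as the strain used for mice without a reporter, and the cecal surface was burned with bipolar forceps, a procedure after which adhesion bands form. A sham-operated group (0 h) and a 72 h group of 3 samples each entered the fit, and their levels are given beside those at 3 h and 12 h. The labels name no genetic change or drug in any group, the methods give pentobarbital as the anaesthetic, and ages were not given in the sources used here. Each sample was RNA of bulk cecum tissue, so that fewer cells of a type and less RNA per cell cannot be told apart.

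The surface of the cecum is a single layer of mesothelial cells over smooth muscle, connective tissue and mucosa. After an injury, stress genes and early transcription factors are switched on within a short time in the cells that remain, neutrophils enter first, and monocytes follow and become macrophages. Chemokines guide these cells, and the epithelium of the mucosa below carries out transport of salt and water and detoxification.

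Levels are log2 intensities of 1-colour arrays, relative to the 75th percentile of each array, so that a level of 0 is at that percentile. The share of probes well above background ranged from 60.2% to 65.2% over the arrays, with 0 saturated spots. The replicate arrays correlated across probes by 0.985 to 0.989 within 3 h and 0.986 to 0.988 within 12 h. The sham, 3 h and first 2 arrays of 12 h lay on slide 1, and 12 h replicate 3 lay on slide 2 with the 72 h arrays, so each main result was also computed within slide 1. The labels give all mice as male, but Xist, expressed from the inactive X chromosome of females, lay well above background on each of the 12 arrays and the Y-linked Ddx3y and Eif2s3y on 0. Of 6 probes of Kdm5d, also Y-linked, 1 was above background at both times and 5 at neither. Of the markers that check the tissue, 5 of 5 of the large intestine epithelium, 4 of 4 of smooth muscle and 1 of 4 of mesothelial cells were well above background on all 6 arrays. The array labelled 3 h replicate 1 stood apart in B cell genes, with Ms4a1, the CD20 antigen, at -2.92, 0.62 and 2.08 on the 3 h arrays, and in the mesothelial gene Msln, at -5.73, 0.06 and 0.62.

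Of 37074 genes, each represented by its brightest probe, 1282 (3.46%) were called different between 12 h and 3 h, at a change of more than 2-fold and a limma adjusted p below 0.05. Higher at 12 h were 690 genes (1.86%) and lower were 592 (1.6%). Among the 21217 genes well above background on all 6 arrays, 940 (4.43%) were called, 511 (2.41%) higher and 429 (2.02%) lower, and the arrays of 3 h and 12 h did not overlap for 42.4% of these genes, called or not. The median difference was 1.47 among called rises and -1.30 among called falls, against -0.13 over all genes, a median that was -0.012 after quantile normalization. Beyond a log2 difference of 2 lay 114 rises and 64 falls, of which 66 and 38 were in genes well above background on all 6 arrays. Well above background on none of these 6 arrays were 20 of the called rises and 54 of the called falls. In both directions, 499 of the 1282 calls held without any 1 of the 12 arrays and within slide 1, and without 12 h replicate 1 the number of rises was 380. Below, a call is named as stable where it passed both of these checks, and for most of the others given by value the arrays whose absence ended the call are named.

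**Figure D1:**
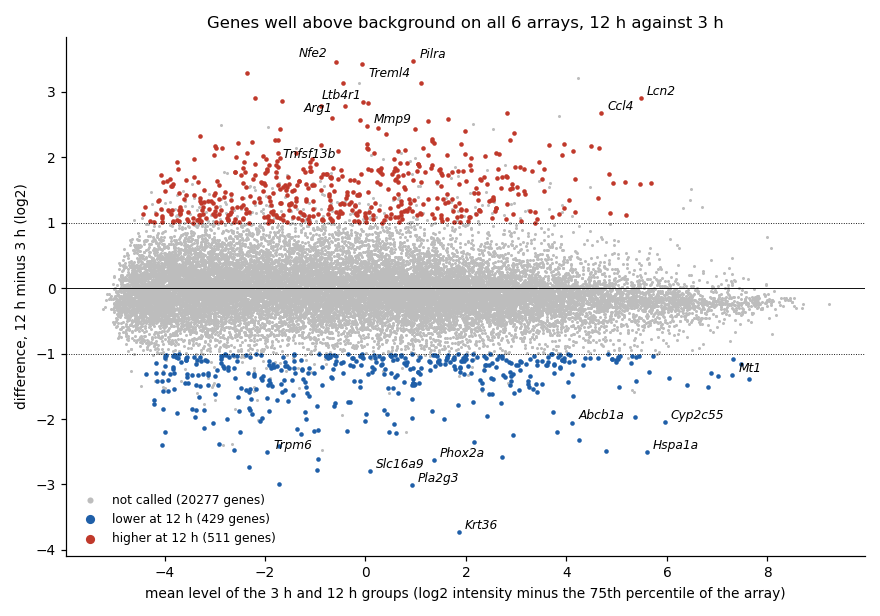
Difference between 12 h and 3 h (log2, vertical axis) against the mean level of both groups (log2 relative to the 75th percentile, horizontal axis) for the 21217 genes well above background on all 6 arrays, with dotted lines at a 2-fold change. The 511 called rises (red) and 429 called falls (blue) spread over the range of levels, with Krt36 the lowest and Pilra the highest of the called genes.

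Several of the largest called rises among genes measured at both times were in receptors of myeloid cells. Pilra, an inhibitory paired immunoglobulin-like receptor (probe at chr5:138264617-138264676, build mm9), lay at -1.24, -0.46 and -0.65 at 3 h and 2.94, 2.69 and 2.46 at 12 h. The groups did not overlap, and the difference was 3.48 ± 0.39 SE, adjusted p = 0.00144, with n = 3 arrays per group, or 11.1-fold. Within slide 1 it was 3.60. The second Pilra probe differed by 3.32 and was called, while the third, also above background at both times, differed by -0.10 and was not called. The activating partners of Pilra, Pilrb1 and Pilrb2, were higher by 2.58 and 3.29. In the paired immunoglobulin-like receptor families (Pilr, Pir and Lilr), 6 of 8 genes rose and 0 fell, with a median difference of 2.11. These and other families by symbol were grouped after the values were seen, and their counts are a description. Lilrb4, an inhibitory receptor, rose by 1.75, and Pira2 and Lilra6, members of the activating kind, by 2.14 and 2.07. All 6 calls of these families were stable.

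Treml4, a receptor of the TREM family (probe at chr17:48414646-48414705, mm9), lay at -2.36, -1.20 and -1.78 at 3 h and 1.94, 1.03 and 2.0 at 12 h. The 12 h arrays were all above the 3 h arrays, with a difference of 3.44 ± 0.51 SE, adjusted p = 0.00435. The sham mean of Treml4 was -2.53 and the 72 h mean 0.58. Of 6 genes of the TREM family 3 rose and 0 fell, with a median difference of 0.48 and the lowest member, Treml1, at -1.27 ± 0.51 SE, adjusted p = 0.165, not called. Trem3 rose by 2.79 and Trem1, which amplifies Toll-like receptor signals, by 1.02. Of the 4 Fc gamma receptors, which bind IgG, 3 rose, with Fcgr1, the high-affinity receptor, at -1.76, -2.34 and -2.17 at 3 h and -0.54, -0.44 and 0.07 at 12 h. Its groups did not overlap (1.78 ± 0.22 SE, adjusted p = 0.00207), and Fcgr4 and Fcgr3 were higher by 1.82 and 1.23. Among 11 C-type lectins of the Clec4 group 3 rose, which were Clec4a1 (1.44), Clec4a3 (2.06) and Clec4b1 (1.60). Among 8 CD300 receptors 3 rose, Cd300a by 1.52, Cd300lb by 2.73 and Cd300ld by 1.69. The call of Trem1 was lost without 3 h replicate 1 or 3 or 12 h replicate 1 (change under 2-fold), and the other calls of these 4 families were stable.

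Genes of granulocytes rose in part. Of 27 neutrophil granule and surface genes 7 were called higher, 1 of them (Mmp9) stable, and 0 lower, with a median difference of 1.51. Mmp9, a gelatinase stored in neutrophil granules, lay at -1.41, -0.93 and -1.28 at 3 h and 1.37, 1.36 and 1.11 at 12 h. The groups were far apart, with a difference of 2.48 ± 0.24 SE, adjusted p = 0.000874, and 2.57 within slide 1. Lcn2, which binds bacterial iron carriers, lay at 3.11, 4.25 and 4.71 at 3 h and 7.35, 6.57 and 6.86 at 12 h, a difference of 2.91 ± 0.60 SE, adjusted p = 0.0179. The 3 h arrays of Lcn2 were all below those of 12 h, but the call was lost without 3 h replicate 1 or 12 h replicate 1 or 3 (highest adjusted p = 0.0655). Ltf, the iron-binding protein lactoferrin, was higher by 2.91 ± 0.71 SE, adjusted p = 0.0325, a call lost without 3 h replicate 1 or 2, any 12 h array or sham replicate 2 (highest adjusted p = 0.0986). Cebpe, a transcription factor of late granulocyte maturation, lay at -2.85, -2.68 and -3.73 at 3 h and -0.07, -0.13 and -0.48 at 12 h, without overlap and with a stable difference of 2.86 ± 0.29 SE, adjusted p = 0.00102.

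Other defining neutrophil genes were not called. Ly6g, a surface protein of neutrophils, lay at 4.16, 4.01 and 4.40 at 3 h and 4.37, 4.01 and 4.28 at 12 h, and the arrays of the groups overlapped (0.03 ± 0.55 SE, adjusted p = 0.977). That SE includes the wider spread of the sham arrays of Ly6g, at -0.76, 0.59 and 1.98. S100a8, a calcium-binding protein abundant in neutrophils, differed by 1.52 ± 0.59 SE, adjusted p = 0.149, and S100a9 by 0.78 ± 0.44 SE, adjusted p = 0.300. S100a8 lay at 5.17, 6.15 and 5.855 at 3 h and 7.42, 7.25 and 7.07 at 12 h. S100a9 lay at 7.145, 8.005 and 7.65 at 3 h and 8.345, 8.36 and 8.43 at 12 h. The SE of S100a8 also includes the spread of its sham arrays, at -6.10, -5.37 and -3.67, so the lack of a call does not show that it was unchanged. Mmp8, the neutrophil collagenase, differed by -0.02 ± 0.72 SE, adjusted p = 0.988, and Retnlg by 0.10 ± 0.38 SE, adjusted p = 0.887. Camp, the cathelicidin precursor, differed by 1.83 ± 0.52 SE, adjusted p = 0.0588, and Ngp, another granule protein, by 2.47 ± 0.87 SE, adjusted p = 0.115. The summed linear level of 7 neutrophil markers was 245 to 414 times the 75th percentile at 3 h and 562 to 584 times at 12 h, that of 5 macrophage markers was 11.4 to 14.5 and 19.1 to 21.2, and that of 4 T cell markers was 3.53 to 5.48 and 4.86 to 7.61. Of these markers 1 neutrophil gene (Cxcr2), 2 macrophage genes (Cd68 and Fcgr1) and 0 T cell genes were called. S100a9 and S100a8, neither called, weigh most in the neutrophil sum at 12 h. Csf3r, another of the 7 neutrophil markers, differed by 0.09 ± 0.13 SE, adjusted p = 0.667, with a sham mean of 5.85, and Ly6g, Mmp8 and Retnlg were also near 0. The part of these cell markers in the rises of myeloid receptors was not tested.

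Nfe2, a transcription factor known from the megakaryocyte and red cell lineages (probe at chr15:103078729-103078788, mm9), was at -2.70, -2.08 and -2.19 at 3 h and 1.35, 1.23 and 0.83 at 12 h. No array of 3 h reached those of 12 h, and the difference was 3.46 ± 0.27 SE, adjusted p = 0.000553. Ltb4r1, the receptor of the neutrophil attractant leukotriene B4, was at -1.25, -1.23 and -1.62 at 3 h and 1.62, 1.58 and 1.18 at 12 h, a difference of 2.83 ± 0.23 SE, adjusted p = 0.000553. Alox5ap, which presents arachidonic acid to the enzyme that makes leukotrienes, rose by 2.05 ± 0.25 SE, adjusted p = 0.00201, and was the 1 called gene of 20 in the prostaglandin and leukotriene list. Both Nfe2 and Ltb4r1 were also among 6 rises that passed a test against a 2-fold change (limma's treat). Subunits of the phagocyte oxidase, which makes superoxide, were also called higher. Of these, Ncf1 (2.15) lost its call without 12 h replicate 1 or 3 (highest adjusted p = 0.0740) and within slide 1 (adjusted p = 0.0576), Rac2 (2.05) without 12 h replicate 1 (highest adjusted p = 0.0544) and within slide 1 (adjusted p = 0.0740), and Ncf4 (1.68) within slide 1 (adjusted p = 0.0542).

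**Figure D2:**
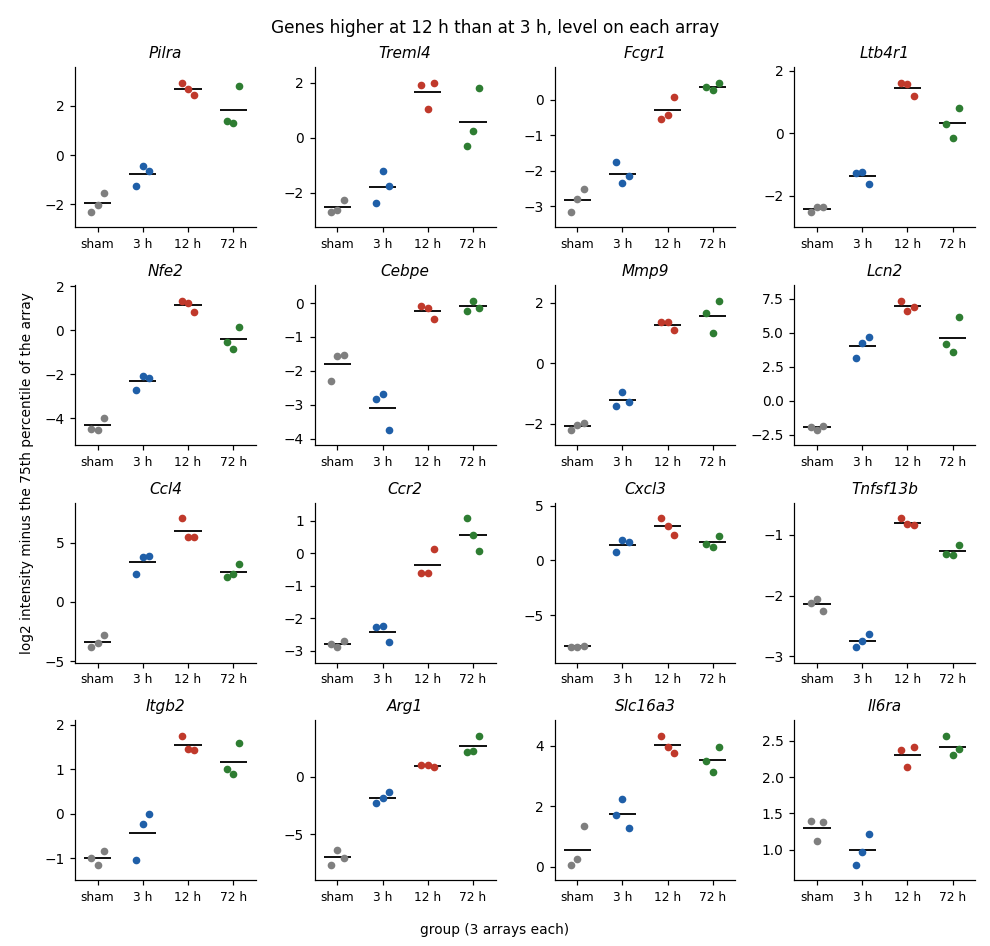
Level of 16 called rises on each array (points) with the group mean (line), in log2 intensity relative to the 75th percentile of the array, for sham, 3 h, 12 h and 72 h with 3 arrays each. The 12 h points lie above the 3 h points in every panel, and the sham level lies near the 3 h level for Treml4 and Ccr2 and well below it for Lcn2 and Ccl4.

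Receptors of monocytes and some chemokine ligands rose. Of 31 monocyte and lymphocyte chemokines and receptors, 6 rose, 4 of them stable, and 1 fell, with a median difference of 0.46. Ccr2, which brings inflammatory monocytes out of the marrow and into tissue, lay at -2.28, -2.25 and -2.72 at 3 h and -0.59, -0.61 and 0.14 at 12 h. Its groups did not overlap (2.06 ± 0.27 SE, adjusted p = 0.00253). Cx3cr1, the receptor of fractalkine, was higher by 1.57 ± 0.24 SE, adjusted p = 0.00530. Ccl6, a chemokine of myeloid cells, was higher by 1.23 ± 0.24 SE, adjusted p = 0.0150. Ccl4, a chemokine of macrophages, lay at 2.40, 3.76 and 3.87 at 3 h and 7.07, 5.503 and 5.51 at 12 h, higher at 12 h on every array (2.68 ± 0.53 SE, adjusted p = 0.0150), and its call was lost within slide 1 (adjusted p = 0.0538). Ccl3, a related chemokine, differed by 2.14 ± 0.58 SE, adjusted p = 0.0465, a call lost without any 3 h array, any 12 h array, any sham array or 72 h replicate 2 (highest adjusted p = 0.149) and within slide 1 (adjusted p = 0.0509). The ligand of Ccr2, Ccl2, was at 4.79, 4.85 and 5.04 at 3 h and 5.34, 4.93 and 4.78 at 12 h and was not called (0.12 ± 0.34 SE, adjusted p = 0.842). Ccl11, which attracts eosinophils, was the gene that fell, at 3.75, 3.69 and 3.85 at 3 h and 2.45, 2.77 and 2.60 at 12 h, a stable difference of -1.16 ± 0.14 SE, adjusted p = 0.00208.

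Among 9 neutrophil chemokines and receptors 3 rose and 0 fell, and the median difference was 1.31, but each of the 3 calls depended on single arrays. Cxcl3, a ligand of Cxcr2, was at 0.78, 1.87 and 1.68 at 3 h and 3.85, 3.17 and 2.33 at 12 h. The lowest 12 h array lay above the highest 3 h array, the difference was 1.67 ± 0.40 SE, adjusted p = 0.0318, and the call was lost without any 3 h array or 12 h replicate 1 or 2 (highest adjusted p = 0.0998). Cxcr2 itself differed by 1.84 ± 0.50 SE, adjusted p = 0.0468, and lost its call without 3 h replicate 1 or 3, any 12 h array, sham replicate 3 or any 72 h array (highest adjusted p = 0.132) and within slide 1 (adjusted p = 0.131). Ppbp, a platelet chemokine, differed by 1.31 ± 0.28 SE, adjusted p = 0.0212, and lost its call without 3 h replicate 2 or 3 or 12 h replicate 1 or 2 (highest adjusted p = 0.0790). Cxcl1, Cxcl2 and Cxcl5, all ligands of Cxcr2, were not called, with differences of -0.63 ± 0.37 SE, adjusted p = 0.307, 1.64 ± 0.49 SE, adjusted p = 0.0686, and 0.86 ± 0.32 SE, adjusted p = 0.136, but Cxcl2 was called under 4 alternatives, with differences of 1.64 to 1.67. The 250 bases upstream of Cxcl3 are shown, since they held 1 match to the NF-kB like letters GGGAATTTC, -73 from the gene start (chr5:90785851-90786100, plus strand, RefSeq, GRCm38.p6). The match is in capitals.
Cxcl3: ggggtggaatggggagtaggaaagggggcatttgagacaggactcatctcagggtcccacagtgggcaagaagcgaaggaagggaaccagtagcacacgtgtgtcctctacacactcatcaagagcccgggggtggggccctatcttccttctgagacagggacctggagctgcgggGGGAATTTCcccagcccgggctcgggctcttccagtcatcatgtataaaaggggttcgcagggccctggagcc

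Signals of the TNF family changed in both directions, and called genes of the IL-1 family rose. Tnfsf13b, the B cell survival factor BAFF, lay at -2.85, -2.74 and -2.63 at 3 h and -0.73, -0.83 and -0.84 at 12 h. It was higher by a stable 1.94 ± 0.10 SE, adjusted p = 6.44e-05, and Tnfsf10, the death ligand TRAIL, by 1.65 ± 0.24 SE, adjusted p = 0.00377, each on its brightest probe. Other Tnfsf13b probes differed by 1.42 (called) and 0.72 (not called). The second Tnfsf10 probe, above background at both times, differed by -0.15, adjusted p = 0.337, and was not called. Tnf itself was at -0.64, -0.15 and -0.03 at 3 h and 2.49, 0.79 and 1.32 at 12 h and differed by 1.81 ± 0.47 SE, adjusted p = 0.0402, a call lost without any 3 h array, 12 h replicate 1 or 3 or any sham array (highest adjusted p = 0.115) and within slide 1 (adjusted p = 0.0740). Ltb, lymphotoxin beta, differed by 1.53 ± 0.38 SE, adjusted p = 0.0358, lost without 3 h replicate 1 or 2, 12 h replicate 1 or 3, sham replicate 1 or 72 h replicate 2 (highest adjusted p = 0.117) and within slide 1 (adjusted p = 0.146), and Tnfsf14, known as LIGHT, rose by a stable 1.59. Of 16 genes in the TNF list 5 rose and 2 fell, and one of those that fell was Tnfrsf12a, the receptor of TWEAK, with a stable difference of -1.17 ± 0.19 SE, adjusted p = 0.00618. The other was Tnfsf15, with -2.16 ± 0.55 SE, adjusted p = 0.0376, lost without 3 h replicate 1 or 2, any 12 h array, sham replicate 1 or 72 h replicate 2 or 3 (highest adjusted p = 0.112) and within slide 1 (adjusted p = 0.170). Il1rap, the shared chain of IL-1 receptors, rose by 1.30 ± 0.17 SE, adjusted p = 0.00273. Il1b was at 4.32, 5.51 and 4.81 at 3 h and 6.88, 6.43 and 6.14 at 12 h, a difference of 1.61 ± 0.41 SE, adjusted p = 0.0385, and its call was lost without 3 h replicate 1 or 3, any 12 h array or sham replicate 2 (highest adjusted p = 0.125) and within slide 1 (adjusted p = 0.0924). In the IL-1 and inflammasome list 4 of 14 genes rose and 0 fell, and of these 4 Il1rap was stable. Il1f9 (1.71) was lost without 3 h replicate 1 or 3, 12 h replicate 1 or 3 or any sham array (highest adjusted p = 0.125) and within slide 1 (adjusted p = 0.104), and the inflammasome sensor Nlrp3 (1.55) without 3 h replicate 1 or 3 or 12 h replicate 1 (highest adjusted p = 0.0792) and within slide 1 (adjusted p = 0.0698).

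Il6 was not called, while the brightest probe of its receptor rose. Il6 lay at 2.34, 2.59 and 2.30 at 3 h and 1.75, 2.47 and 0.41 at 12 h. Its groups overlapped, and the difference was -0.86 ± 0.45 SE, adjusted p = 0.261. Il6ra, which binds it, was at 0.79, 0.97 and 1.21 at 3 h and 2.37, 2.14 and 2.42 at 12 h, without overlap and with a stable rise of 1.32 ± 0.14 SE, adjusted p = 0.00138 for that probe. The second Il6ra probe differed by -0.0015. Stat3, the transcription factor downstream of the receptor, differed by -0.37 ± 0.11 SE, adjusted p = 0.0642. Of 14 ligands and receptors of the IL-6 family 1 rose (Il6ra) and 1 fell (Ctf1, -1.01, lost without 3 h replicate 1 or 2 or 12 h replicate 1 or 3). Of 27 genes known as induced by IL-6 and STAT3, 6 rose, 0 of them stable, and 1 fell, with a median difference of 0.59. Hp, haptoglobin, was 1 of these rises (2.10 ± 0.43 SE, adjusted p = 0.0165), lost without 3 h replicate 1 or 12 h replicate 1 or 3 (highest adjusted p = 0.0622) and within slide 1 (adjusted p = 0.0648), and Mt2, a metallothionein, was the 1 that fell, with a stable -1.15 ± 0.16 SE, adjusted p = 0.00337. In the same list of 27 genes, 8 rose and 0 fell with quantile normalization, and 10 rose and 1 fell with normexp background correction.

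Receptors for microbial and damage signals rose in 8 of 23 cases, 3 of them stable, and fell in 0, with a median difference of 0.77. Tlr12 lay at -1.75, -1.84 and -1.58 at 3 h and -0.14, 0.13 and 0.07 at 12 h and was higher by 1.75 ± 0.20 SE, adjusted p = 0.00174. Tlr6, which pairs with Tlr2 to sense lipopeptides, was higher by 1.31 ± 0.17 SE, adjusted p = 0.00250. These 2 calls were stable, and their arrays did not overlap. Tlr4, the receptor of lipopolysaccharide, differed by 1.17 ± 0.26 SE, adjusted p = 0.0253, lost without any 3 h array or 12 h replicate 1 or 3 (highest adjusted p = 0.0852). Cd14, which delivers lipopolysaccharide to it, differed by 1.11 ± 0.30 SE, adjusted p = 0.0460, lost without any 3 h array, any 12 h array, any sham array or 72 h replicate 2 (highest adjusted p = 0.143) and within slide 1 (adjusted p = 0.0747). Tlr2 differed by 1.08 ± 0.26 SE, adjusted p = 0.0333, lost without any 3 h array, 12 h replicate 1 or 3 or sham replicate 2 (highest adjusted p = 0.113) and within slide 1 (adjusted p = 0.0503). C5ar1, the receptor of the complement fragment C5a, rose by a stable 1.84 ± 0.20 SE, adjusted p = 0.00138, and C3, the central complement protein, differed by 1.61 ± 0.29 SE, adjusted p = 0.00986, and lost its call within slide 1 (adjusted p = 0.0648). Gsdmd, which forms pores in dying cells, rose by 1.28 ± 0.13 SE, adjusted p = 0.000932, also stable.

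Genes for the adhesion of leukocytes rose in part, with 5 of 20 endothelial activation and adhesion genes higher, 3 of them stable, 0 lower and a median difference of 0.26. Itgb2, the beta chain of leukocyte integrins, lay at -1.04, -0.23 and -0.01 at 3 h and 1.75, 1.45 and 1.43 at 12 h. Itgal, its partner chain in LFA-1, was at -2.32, -1.93 and -1.76 at 3 h and -0.33, -0.23 and -0.08 at 12 h. Both sets of arrays were apart, with differences of 1.97 ± 0.27 SE, adjusted p = 0.00298, and 1.79 ± 0.21 SE, adjusted p = 0.00181. The dimmer probes of Itgal differed by 0.64 and 0.79 and were not called. Selplg, the ligand of P-selectin, was higher by 1.63 ± 0.22 SE, adjusted p = 0.00273. These calls were stable. Apln, a peptide of endothelial cells in the same list, differed by 1.07 ± 0.26 SE, adjusted p = 0.0346, and lost its call without 3 h replicate 2 or 3, 12 h replicate 1 or 2, sham replicate 2 or 72 h replicate 2 (highest adjusted p = 0.111). The adhesion molecules Sele, Selp, Icam1 and Vcam1 of the endothelium were not called, with differences of -0.75, -0.74, -0.11 and -0.41 (adjusted p = 0.339, 0.111, 0.854 and 0.160).

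Genes of monocytes and macrophages rose in part. Of 27 such genes 8 rose, 5 of them stable, and 0 fell, and the largest rise was that of Arg1, the arginine-degrading enzyme of wound macrophages, at -2.28, -1.81 and -1.32 at 3 h and 1.04, 1.06 and 0.88 at 12 h. Its groups did not overlap, with a difference of 2.79 ± 0.42 SE, adjusted p = 0.00460, and its sham mean was -7.02 and its 72 h mean 2.68. Cd68 rose by 1.37 ± 0.18 SE, adjusted p = 0.00238, whereas Adgre1, the F4/80 antigen, differed by 0.92 ± 0.21 SE, adjusted p = 0.0255, and Csf1r by 0.28 ± 0.11 SE, adjusted p = 0.144, neither called. Of 24 hypoxia and glycolysis genes 5 rose, 2 of them stable, and 1 fell. Slc16a3, which exports lactate, was at 1.72, 2.26 and 1.27 at 3 h and 4.33, 3.96 and 3.77 at 12 h, without overlap and with a difference of 2.27 ± 0.37 SE, adjusted p = 0.00625. Ankrd37, a target of hypoxia-inducible factor, rose by 2.10 ± 0.32 SE, adjusted p = 0.00464, and Ndrg1, also known as raised by hypoxia, was the gene that fell (-1.49 ± 0.20 SE, adjusted p = 0.00298). The calls of Arg1, Cd68, Slc16a3, Ankrd37 and Ndrg1 were stable, while those of Slc2a3, Bnip3 and Egln3, at 1.47, 1.19 and 1.38, were lost without any 1 of 4, 6 and 8 of the 12 arrays.

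Of the wound matrix, Tnc, the glycoprotein tenascin C, was at -0.81, -0.82 and -0.66 at 3 h and 0.47, 0.19 and 0.45 at 12 h and rose by 1.13 ± 0.12 SE, adjusted p = 0.00135. Adam8, a leukocyte metalloprotease, rose by 2.03 ± 0.27 SE, adjusted p = 0.00272, and F13a1, the fibrin-crosslinking factor of macrophages and platelets, by 1.28 ± 0.24 SE, adjusted p = 0.0120. The second probes of Tnc and F13a1, above background at both times, differed by 0.64 and 0.61 and were not called. The third F13a1 probe, above background at 12 h only, differed by 1.82 and was called. Col1a2, a chain of type I collagen, differed by -1.10 ± 0.29 SE, adjusted p = 0.0451 on its brightest probe, a call lost without any 3 h array, any 12 h array, any sham array or 72 h replicate 2 (highest adjusted p = 0.135), and the mean of its probes differed by 0.12. Col1a1 was at 2.75, 2.64 and 2.41 at 3 h and 1.70, 1.70 and 1.85 at 12 h and was not called (-0.85 ± 0.26 SE, adjusted p = 0.0777). Of 26 matrix and myofibroblast genes 1 rose (Tnc) and 2 fell (Col1a2 and Loxl4, a lysyl oxidase, neither stable), and of 20 genes of the TGF-beta list 1 rose (Tgfbi, 1.07, lost without 3 h replicate 3 or 12 h replicate 3) and 0 fell. Tgfb1 differed by 0.92 ± 0.18 SE, adjusted p = 0.0148, under the 2-fold threshold, with -1.78, -1.33 and -1.13 at 3 h and -0.52, -0.45 and -0.50 at 12 h. Not called were Acta2, smooth muscle actin, which differed by -0.55 ± 0.21 SE, adjusted p = 0.148, Wt1, a mesothelial transcription factor, by 0.17 ± 0.58 SE, adjusted p = 0.873, and Pdpn, podoplanin, by 0.58 ± 0.13 SE, adjusted p = 0.0224. Ifng, interferon gamma, was also not called, at -0.14 ± 0.78 SE, adjusted p = 0.922, and of the 22 genes in the list of Ifng and its targets 0 were called. The Ifng probe was well above background on only 1 of 3 arrays at 3 h and 2 of 3 at 12 h, with means of -4.73 and -4.87. At this level the value cannot show whether Ifng changed.

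The heat shock proteins Hspa1a and Hspa1b were among the largest falls. Hspa1a, an inducible HSP70 chaperone (probe at chr17:35106766-35106825, mm9), lay at 6.80, 6.93 and 6.82 at 3 h and 4.72, 4.72 and 3.61 at 12 h, and Hspa1b at 5.40, 5.46 and 5.35 at 3 h and 3.30, 3.49 and 2.47 at 12 h. Every 12 h array was below every 3 h array, with differences of -2.501 ± 0.35 SE, adjusted p = 0.00332, and -2.32 ± 0.39 SE, adjusted p = 0.00756, both stable. In sham the means were 0.67 and 0.52, and at 72 h 1.31 and 0.77. These genes are near-identical copies, so the probes may not tell them apart, and they are read here as 1 measurement. The other 14 of 16 heat shock genes were not called, with Hsph1 at a difference of -0.67 ± 0.27 SE, adjusted p = 0.160, and Dnajb1, the HSP40 partner, at -0.58 ± 0.17 SE, adjusted p = 0.0664. The 250 bases upstream of both genes are shown to let the copies be compared. They were identical at 247 positions, and each held 1 match to the heat shock letters GAANNTTC, in capitals, -104 from the gene start (minus strand of chr17:34972157-34972406 and chr17:34959239-34959488, RefSeq, GRCm38.p6).
Hspa1a: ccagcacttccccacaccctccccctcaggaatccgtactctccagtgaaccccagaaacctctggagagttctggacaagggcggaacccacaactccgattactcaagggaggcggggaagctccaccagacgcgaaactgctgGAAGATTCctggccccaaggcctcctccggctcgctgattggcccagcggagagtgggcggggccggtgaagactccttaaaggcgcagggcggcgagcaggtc
Hspa1b: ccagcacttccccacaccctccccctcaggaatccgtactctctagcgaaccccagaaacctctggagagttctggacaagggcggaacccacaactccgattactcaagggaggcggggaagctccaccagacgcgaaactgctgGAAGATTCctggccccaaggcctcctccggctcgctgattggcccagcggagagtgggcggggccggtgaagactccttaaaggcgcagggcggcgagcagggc

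Other stress-responsive and early genes fell in part. Mt1, a metal-binding metallothionein, was at 7.85, 8.04 and 8.0 at 3 h and 6.78, 6.46 and 6.68 at 12 h, a difference of -1.32 ± 0.15 SE, adjusted p = 0.00144. Fkbp5, a chaperone partner known as induced by glucocorticoids, was at 4.08, 4.25 and 4.41 at 3 h and 2.89, 2.87 and 2.61 at 12 h, a difference of -1.46 ± 0.18 SE, adjusted p = 0.00215. Neither gene had overlapping arrays, and the sham means, 6.12 and 2.85, lay below the 3 h level of each gene. Of 15 glucocorticoid response genes 3 fell (Fkbp5, Mt2 and Sult1a1, all stable) and 2 rose (Lcn2 and Hsd11b1, neither stable), with a median difference of -0.64. Of 27 immediate early genes 4 fell and 1 rose, the latter Klf2, a factor of endothelium and resting lymphocytes (1.14), lost without 3 h replicate 1 or 2 or 12 h replicate 1 (highest adjusted p = 0.0687) and within slide 1 (adjusted p = 0.0655). Arc, an early gene known from neurons, lay at 0.41, 0.32 and 0.08 at 3 h and -1.28, -1.23 and -1.94 at 12 h, a difference of -1.76 ± 0.23 SE, adjusted p = 0.00236. Myc, a transcription factor of growth, lay at 1.61, 1.54 and 1.79 at 3 h and 0.50, 0.29 and -0.03 at 12 h, a difference of -1.39 ± 0.16 SE, adjusted p = 0.00151, and Fosl1, an AP-1 subunit, fell by 1.37. Those 3 falls were stable, and that of Nr4a2, an orphan nuclear receptor (-1.13), was lost without 3 h replicate 2 or 12 h replicate 1 or 3 (highest adjusted p = 0.0588) and within slide 1 (adjusted p = 0.0514). Fos and Egr1, both classic early genes, were not called, with -0.33 ± 0.21 SE, adjusted p = 0.345, and -0.38 ± 0.27 SE, adjusted p = 0.392.

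Ligands of the EGF receptor fell in part. Btc, betacellulin, lay at -1.03, -1.26 and -0.91 at 3 h and -2.63, -3.05 and -3.44 at 12 h, without overlap and with a stable difference of -1.98 ± 0.24 SE, adjusted p = 0.00208. Areg, amphiregulin, lay at 3.54, 3.02 and 3.26 at 3 h and 2.28, 1.60 and 1.07 at 12 h, lower on every 12 h array (-1.62 ± 0.36 SE, adjusted p = 0.0229), and its call was lost without 3 h replicate 1 or 3 or 12 h replicate 2 or 3 (highest adjusted p = 0.0755) and within slide 1 (adjusted p = 0.0705). Egf fell, with a stable difference of -1.09 ± 0.18 SE, adjusted p = 0.00676, and it was -0.57 with normexp background correction. Ereg and Hbegf were not called, with -0.63 ± 0.35 SE, adjusted p = 0.287, and -0.51 ± 0.12 SE, adjusted p = 0.0257. Epgn was the only member of its list of 18 to rise, by 1.08 ± 0.27 SE, adjusted p = 0.0361, a call lost without 3 h replicate 1 or 2, any 12 h array, sham replicate 1 or 72 h replicate 3 (highest adjusted p = 0.125) and within slide 1 (adjusted p = 0.115). The sequence upstream of Areg is shown for 1 match to the cyclic AMP response element TGACGTCA, in capitals, -61 from the gene start (chr5:91139349-91139598, plus strand, RefSeq, GRCm38.p6).
Areg: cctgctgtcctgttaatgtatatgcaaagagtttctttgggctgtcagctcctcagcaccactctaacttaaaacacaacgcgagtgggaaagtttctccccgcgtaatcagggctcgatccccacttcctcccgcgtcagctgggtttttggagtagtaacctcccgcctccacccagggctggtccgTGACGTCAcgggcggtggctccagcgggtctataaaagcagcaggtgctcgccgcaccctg

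**Figure D3:**
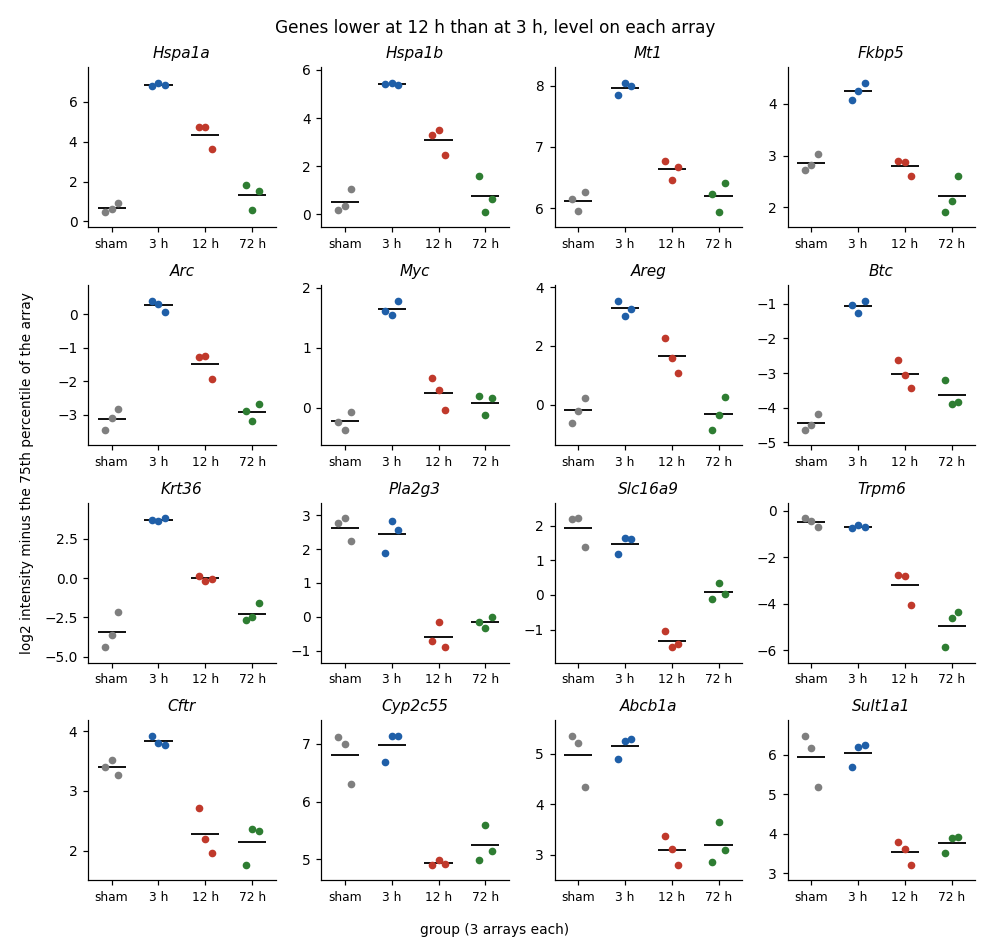
Level of 16 called falls on each array (points) with the group mean (line), in log2 intensity relative to the 75th percentile of the array, for sham, 3 h, 12 h and 72 h with 3 arrays each. In the upper 2 rows and for Krt36 the 3 h points lie above sham, and for Pla2g3, Cyp2c55, Abcb1a and Sult1a1 the sham and 3 h points lie close together above those of 12 h and 72 h.

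The largest called fall was that of Krt36, a hair-type keratin (probe at chr11:99963330-99963389, mm9), at 3.71, 3.63 and 3.82 at 3 h and 0.15, -0.16 and -0.03 at 12 h. Its groups were far apart, with a difference of -3.73 ± 0.47 SE, adjusted p = 0.00227, or 13.3-fold, and the sham mean was -3.41. Pla2g3, a secreted phospholipase (probe at chr11:3394109-3394168, mm9), was at 1.89, 2.83 and 2.56 at 3 h and -0.72, -0.14 and -0.90 at 12 h, a difference of -3.02 ± 0.28 SE, adjusted p = 0.000842. Unlike Krt36 it had a sham mean, 2.63, near its 3 h mean of 2.43. Slc16a9, a monocarboxylate transporter family member, was at 1.18, 1.64 and 1.62 at 3 h and -1.03, -1.503 and -1.42 at 12 h, a difference of -2.80 ± 0.25 SE, adjusted p = 0.000842. Phox2a, a transcription factor of autonomic neurons, and Gpr17, a receptor known from the oligodendrocyte lineage, fell by 2.63 and 2.61. All 5 calls were stable, and Pla2g3, Slc16a9, Phox2a and Gpr17 were 4 of 7 falls that passed the test against a 2-fold change. Gm12703, another of the 7, was well above background at neither time. Keratins as a family showed no single direction, with 3 of 51 higher (Krt6a, Krt6b and Krt86), 0 of them stable, and 3 lower (Krt15, Krt17 and Krt36), of which Krt15 and Krt36 were stable.

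Transport genes of the epithelium fell without any called rise among 20, of which 8 were lower, 6 of them stable, with a median difference of -0.75. Cftr, the chloride channel of crypt cells, lay at 3.92, 3.81 and 3.77 at 3 h and 2.71, 2.19 and 1.96 at 12 h, without overlap and with a difference of -1.55 ± 0.21 SE, adjusted p = 0.00281, and its second probe above background was also called lower (-1.53). Scnn1g, a subunit of the epithelial sodium channel, fell by 2.21, and Slc26a3, the chloride-bicarbonate exchanger of the colon surface, was at 4.48, 5.09 and 4.75 at 3 h and 3.29, 3.67 and 3.41 at 12 h, a difference of -1.32 ± 0.20 SE, adjusted p = 0.00446. Slc20a1, a phosphate transporter, fell by 1.59. Car2, carbonic anhydrase 2, and Kcnn4, a potassium channel, fell by 1.29 and 1.31, and these 6 calls were stable. Aqp8, a water channel, differed by -1.09 ± 0.16 SE, adjusted p = 0.00449, lost without 12 h replicate 3 (change under 2-fold) and within slide 1 (difference -0.90). Trpm6, the magnesium channel of the apical membrane and not in that list, lay at -0.74, -0.63 and -0.72 at 3 h and -2.76, -2.82 and -4.04 at 12 h, and fell by 2.51 (adjusted p = 0.00647). That call was stable. Of 18 amino acid, peptide and nutrient transporters 3 rose and 0 fell. They were Slc7a9 (1.56 ± 0.20 SE, adjusted p = 0.00224) and Slc3a1 (1.33 ± 0.24 SE, adjusted p = 0.00972), which form a cystine carrier and were stable, and the peptide transporter Slc15a1 (1.14), lost without 3 h replicate 1 (change under 2-fold) and within slide 1 (adjusted p = 0.0578). With normexp background correction none of these 3 was called.

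Detoxifying enzymes and pumps fell in part. Of 15 cytochrome P450 2c enzymes 7 fell, 3 of them stable, and 0 rose, with a median difference of -1.04. With quantile normalization and with normexp 5 fell and 0 rose, at medians of -0.85 and -0.75. Cyp2c55, an oxidase of the colon, lay at 6.68, 7.13 and 7.14 at 3 h and 4.90, 4.99 and 4.91 at 12 h, without overlap (-2.05 ± 0.23 SE, adjusted p = 0.00153). Cyp2c40 fell by 2.18 (adjusted p = 0.00363), and Cyp2c68 and Cyp2c69 may share signal. Abcb1a, a chain of the P-glycoprotein drug pump, lay at 4.89, 5.25 and 5.30 at 3 h and 3.37, 3.11 and 2.81 at 12 h, a difference of -2.05 ± 0.29 SE, adjusted p = 0.00360. Abcb1b, its close copy, and Abcb4, a phospholipid transporter, fell by 1.79 and 1.89, and the other 7 of 10 genes of this transporter subfamily were not called. Sult1a1, a phenol sulfotransferase, lay at 5.70, 6.18 and 6.25 at 3 h and 3.80, 3.62 and 3.22 at 12 h, a difference of -2.49 ± 0.31 SE, adjusted p = 0.00209. Each call given by value in these sentences was stable. Of 21 glutathione transferases 4 fell, which were Gstm7 and Gstt1, both stable, and Gstm1 and Gstm3, which are close copies and were not stable. With quantile normalization 0 of these transferases were called higher and 2 lower, and with normexp 1 higher and 1 lower. Of 19 carboxylesterases 3 fell (Ces1d, Ces1f and Ces1g, none stable), and of 26 aldehyde and alcohol dehydrogenases 6 fell and 1 rose (Aldh1l2), none stable.

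**Figure D4:**
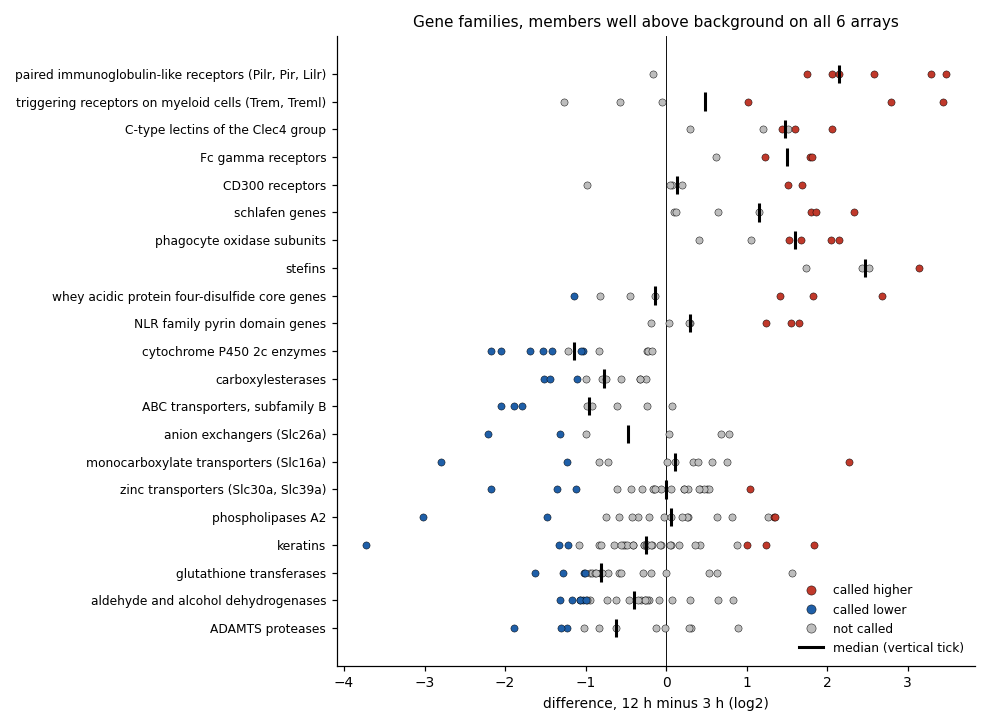
Difference between 12 h and 3 h (log2, horizontal axis) of each member of 21 gene families that was well above background on all 6 arrays (points, red where called higher and blue where called lower), with the family median as a vertical tick. The families were chosen after the values were seen. Paired immunoglobulin-like receptors lie furthest to the right among the families with several called rises, and cytochrome P450 2c enzymes to the left.

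The summed linear level of 5 epithelial markers (Epcam, Vil1, Cdx1, Cdx2 and Car1) was 478 to 560 times the 75th percentile at 3 h and 305 to 410 times at 12 h, with 0 of 5 called, and that of 3 goblet cell markers was 626 to 652 and 432 to 542, with 0 of 3 called. The ranges at 3 h and 12 h did not overlap for either, and their part in the falls of transport and detoxification genes was not tested. Car1, a carbonic anhydrase, was the brightest of the 5 epithelial markers and weighs most in their sum. Its difference was -0.70, against -0.20, -0.30, -0.44 and -0.20 for Epcam, Vil1, Cdx1 and Cdx2. Of 15 goblet and Paneth cell genes and 14 epithelial junction and keratin genes 0 were called, with median differences of -0.37 and -0.21. Muc2, the main mucin, differed by -0.30 ± 0.15 SE, adjusted p = 0.249, and Epcam by -0.20 ± 0.18 SE, adjusted p = 0.508. Of the crypt genes, Sox9 fell by 1.16 (adjusted p = 0.00588, stable), while Lgr5, the stem cell receptor, differed by -0.04 ± 0.22 SE, adjusted p = 0.916. The second Sox9 probe, above background at both times, differed by -0.76 and was not called. A pair of signals of the crypt mesenchyme moved in opposite directions, with Grem1, a BMP antagonist, at 0.69, 1.35 and 1.16 at 3 h and 2.48, 2.52 and 2.98 at 12 h, a difference of 1.59 ± 0.28 SE, adjusted p = 0.00869, and Hhip, which binds hedgehog ligands, at 1.27, 1.40 and 0.94 at 3 h and -0.48, 0.05 and -0.52 at 12 h, a difference of -1.52 ± 0.24 SE, adjusted p = 0.00537. Neither gene had overlapping arrays, and both calls were stable.

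**Figure D5:**
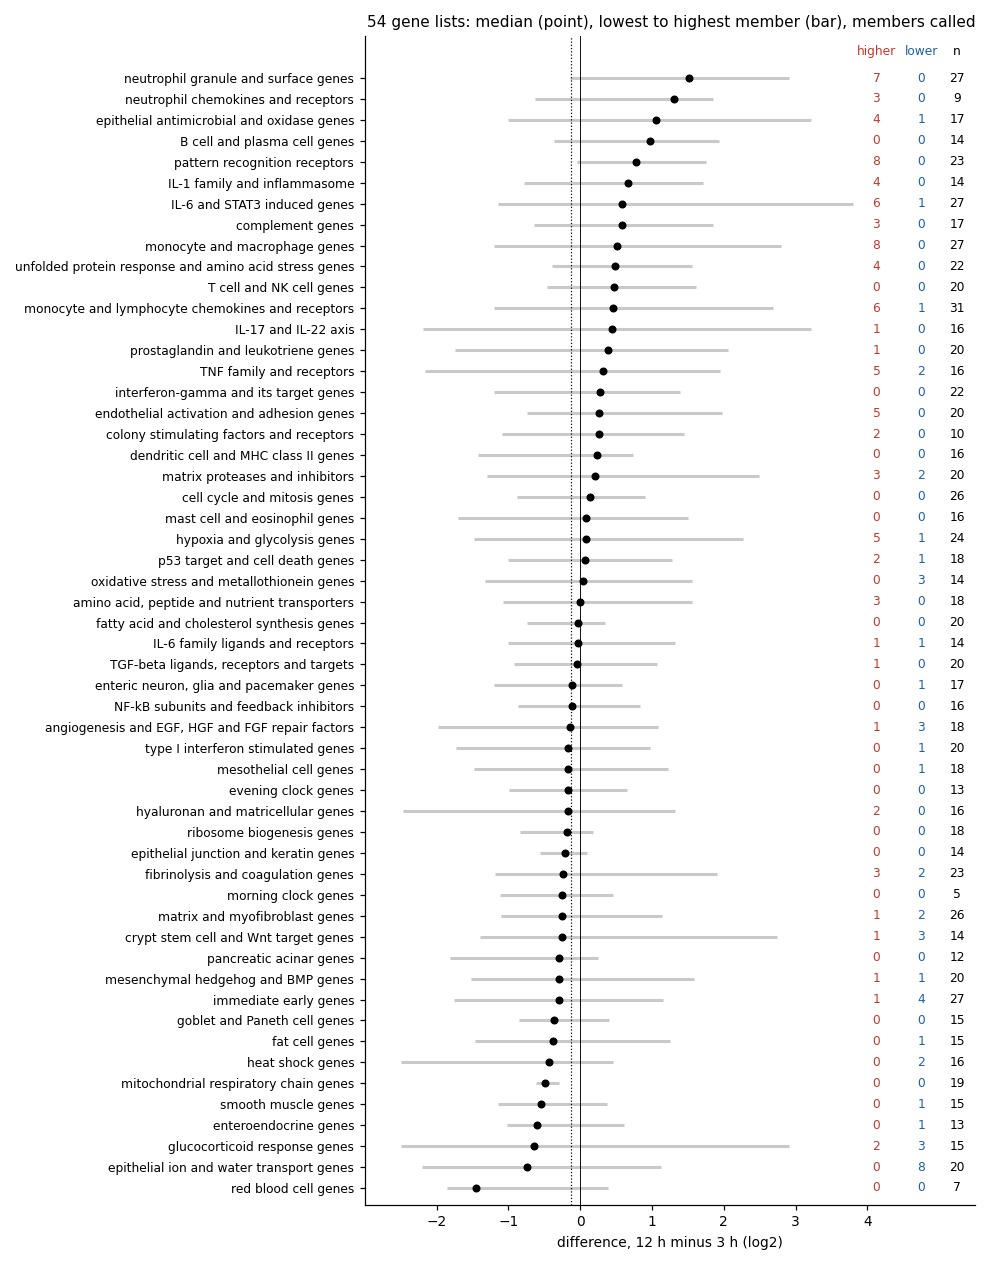
Difference between 12 h and 3 h (log2, horizontal axis) over 54 gene lists, with the median (point), the range from lowest to highest member (bar) and the numbers called higher, called lower and on the array (n). The dotted line is the median of all genes, -0.13, and neutrophil granule and surface genes have the highest median and red blood cell genes the lowest.

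Some genes were above background at only 1 of the times, so that their fold change has only a bound. Higher at 12 h were Adgrf1, an adhesion receptor, by at least 4.77-fold, Dmgdh, a mitochondrial dehydrogenase of the choline pathway, by at least 4.73-fold, and Olfm4, a crypt and neutrophil protein, by at least 4.43-fold, with adjusted p = 0.00511, 0.000165 and 0.0395. Olfm4 lost its call without any 3 h array, any 12 h array or any sham array (highest adjusted p = 0.130). Lower at 12 h were Agbl2, by at least 3.03-fold, and Vit, by at least 2.96-fold, and Agbl2 lost its call within slide 1 (adjusted p = 0.0595). The bound sets the brighter group against the weakest signals well above background on the arrays of the other. It holds for the processed signals only. With normexp background correction (offset 50) the log2 differences of Adgrf1 and Agbl2 were 0.51 and -0.59, under their bounds. The smallest log2 differences over the alternatives were 0.47 for Dmgdh, 0.46 for Olfm4 and -0.49 for Vit. Of the other probes of called genes, 374 were above background, 336 of them differed in the direction of the brightest probe and 211 were also called in it.

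Short motifs were counted in the RefSeq promoter windows (GRCm38.p6) of 422 rises, 384 falls and 19432 genes on the arrays. The heat shock letters GAANNTTC, on both strands, were in 6.87% of rises, 7.29% of falls and 8.45% of all. The NF-kB like letters GGGAATTTC were in 0.948% of rises, 0% of falls and 0.314% of all, so that the first share stands for 4 genes, Cxcl3, Il16, Klra2 and Slc6a13. TGACGTCA was in 0.474%, 2.34% and 2.47%, and the D-box TTATGTAA in 2.61%, 1.3% and 1.05%. These shares are descriptions of letters in the windows and were not tested.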

How the data were processed

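RNA of bulk mouse cecum was hybridised to 1-colour Agilent SurePrint G3 arrays, in 4 groups of 3 samples taken from the labels (sham, 3 h, 12 h and 72 h). The study calls the samples biological triplicates, so p-values measure the spread between these samples. The authors deposited the scanner output, with background-corrected intensity per spot on a linear scale (Feature Extraction 11.5.1.1, probe coordinates on mm9), and a table of log2 values that they scaled to the 75th percentile and centred on each row's median. The depth of an array is its signal over background, and 3 arrays per group limit the precision.

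From the intensities, log2 minus each array's 75th percentile over non-control probes was computed. Outlier spots (53 to 152 per array) were dropped and spots of 1 probe averaged. Group means over all 12 arrays were fitted with limma 3.58.1 (lmFit, contrasts.fit, eBayes) in R 4.3.3, contrasting 12 h with 3 h, with Benjamini-Hochberg adjustment over 56605 probes. Every adjusted p in the text is of this kind, and every SE pools the spread within all 4 groups. Called genes changed more than 2-fold at an adjusted p below 0.05. A gene is the brightest probe of its name, 37074 in all. For 84 probes the fit lacked an array. Genes well above background on no array of a group were given bounds. Python 3.11.15 and the R package data.table (version 1.17.8) were used for reading, and the fit was tested on simulated data. Exons were not assigned, since no genome of this build was used here.

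The comparison, the 54 gene lists, the cell markers and the rule for named genes were chosen with earlier results of these data known, and the 21 families were chosen after the values were seen. The rule named the 12 largest rises and falls measured at both times, the 5 largest bounded ones in each direction, up to 4 called members per list, members called against their list, genes of interest to the study and genes that check the sex label, of which some are not reported here. Other members of lists, markers and families, such as Camp, Ngp, Retnlg, Ccl2, Lgr5, Lilrb4, Ncf1, Trem1, Sele and Cyp2c40, were named after their values were seen. Alternatives were quantile normalization, the percentile over probes above background, normexp, dim probes filtered or set to a floor, the authors' table, outliers kept, slide and replicate blocks, slide 1 alone, eBayes with trend, the 6 arrays alone, the methods' paired t-test, treat, no fold threshold, other probe rules and leaving out each array.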

Additional observations from a re-analysis of the deposited data

How the results depend on the processing

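The number of genes called between 12 h and 3 h was 1282, with 690 higher and 592 lower. Leaving out each of the 12 arrays gave 867 to 1291 calls, 380 to 696 higher and 398 to 598 lower, with the lowest number of rises without 12 h replicate 1. With normexp background correction there were 582 calls (343 higher, 239 lower), and 83 of the genes called with processed signals had the opposite sign. Within slide 1 there were 825 (450 and 375), with the 6 arrays alone 852 (423 and 429), with treat 13 (6 and 7) and with no fold threshold 3381 (1382 and 1999). The methods name a paired t-test for comparing a pair of groups, and name no test for the arrays. Applied here with arrays paired by replicate number, that test gave 0 calls after Benjamini-Hochberg adjustment (0 higher and 0 lower). At an unadjusted p below 0.05 it gave 994. In the limma fit with no fold threshold, 9123 genes had an unadjusted p below 0.05. Fewer arrays entered the fits within slide 1 and of the 6 arrays, treat tests against a 2-fold change, and other causes were not tested.

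The replicate numbers did not pair the arrays, since deviations of arrays with the same number correlated by -0.0741, -0.0384 and 0.02136, and with the replicate number as a block 1103 genes were called. The other alternatives gave between 902 (slide as a block) and 1389 calls (eBayes with trend and robust). For this contrast the slide block gave the same result as leaving out 12 h replicate 3, since slide 2 otherwise held only the 72 h arrays. With the percentile over probes above background 63.1% of the calls were rises, against 53.8%. Of 133 named genes that were called, 53 lost their call without 1 of the 12 arrays and 40 within slide 1. With normexp the calls of Adgrf1, Dmgdh, Olfm4, Agbl2, Vit, Ppbp, Nlrp3, Egf, Tnc, Slc7a9, Slc3a1 and Slc15a1 were among those lost, and with quantile normalization those of Tnfsf15, Mt2 and Col1a2. Of the named genes not called, Cxcl2 gained a call with normexp, both settings for dim probes and eBayes with trend and robust, Tgfb1 without 3 h replicate 3 and with no fold threshold, and Pdpn with no fold threshold.

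Reversals of sign among named genes were small and mostly in genes not called. With normexp F7 was at -0.011, Epgn at -0.017 and Wt1 at -0.046. Wt1 was at -0.28 with the slide as a block and within slide 1. With the mean of all probes Col1a2 was at 0.12. Leaving out each array gave -0.52 to 0.44 for Ifng, -0.059 to 0.14 for Ly6g, -0.32 to 0.57 for Wt1 and -0.083 to 0.31 for Mki67.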

Other observations

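Genes of the unfolded protein response and amino acid stress rose in 4 of 22 cases and fell in 0, with a median difference of 0.49. Sdf2l1, a chaperone partner of the endoplasmic reticulum, lay at 1.05, 0.61 and 0.90 at 3 h and 2.19, 2.33 and 2.13 at 12 h, without overlap and with a difference of 1.36 ± 0.22 SE, adjusted p = 0.00689, which held without any 1 array and within slide 1. Manf, a secreted protein of the same compartment, differed by 1.19 ± 0.30 SE, adjusted p = 0.0351, a call lost without 3 h replicate 2 or 3, any 12 h array, sham replicate 2 or 72 h replicate 2 (highest adjusted p = 0.122) and within slide 1 (adjusted p = 0.145), and 1 of the 4 rises held. The others, Creld2 (1.14) and Asns (1.14), were lost without any 1 of 9 and 7 arrays, and within slide 1 (adjusted p = 0.149 and 0.108). Hspa5, the main chaperone of the compartment, differed by 0.61 ± 0.28 SE, adjusted p = 0.212, and was not called.

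All 19 genes of the mitochondrial respiratory chain on the list were lower at 12 h on every array than at 3 h, with differences from -0.61 to -0.30, and 0 of 19 were called. The arrays did not overlap, in either direction, for 42.4% of all genes well above background on all 6 arrays. The median of the 19 genes was -0.49 against -0.13 over all genes, and it was -0.26 after quantile normalization. Uqcrfs1, the Rieske iron-sulphur subunit, lay at 6.27, 6.30 and 6.14 at 3 h and 5.69, 5.81 and 5.36 at 12 h, a difference of -0.61 ± 0.15 SE, adjusted p = 0.0339. In these bulk samples the summed level of epithelial markers, in which Car1 weighs most, was also lower at 12 h, and its part in this was not tested.

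Red blood cell genes had the lowest median of the 54 lists, -1.45, with 0 of 7 called. Hba-a1, an alpha globin, lay at 2.36, 3.47 and 2.81 in sham, 7.49, 5.67 and 5.27 at 3 h and 4.78, 4.08 and 4.81 at 12 h. The 3 h arrays spread widely and the difference was -1.59 ± 0.66 SE, adjusted p = 0.174.

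B cell genes also had 0 of 14 called, at a median of 0.97. Ms4a1 lay at -2.92, 0.62 and 2.08 at 3 h and 2.43, 1.29 and 1.88 at 12 h, and 3 h replicate 1 lay below all the others. The clock lists had 0 of 13 evening and 0 of 5 morning genes called, and 0 of 26 cell cycle genes were called, with Mki67, a proliferation marker, at a difference of 0.10 ± 0.25 SE, adjusted p = 0.825.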
